A study of Rattus norvegicus with 35 samples.

Results

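A set of 38 genes that mark the cells of the kidney's filtering unit and blood vessels was followed across 35 rat kidney cortex libraries. They were chosen by name and in 3 sets, with 14 podocyte genes, 11 genes of mesangial and smooth muscle cells and 13 endothelial genes. Of the 38 named genes, 36 matched a gene of the deposited table of 32545 genes, and all 36 reached 0.5 FPKM in 5 or more libraries. FPKM is a fragment count per kilobase of gene length, scaled to the size of the library. The 36 comprised 13 podocyte, 11 mesangial and smooth muscle and 12 endothelial genes, and 15939 genes in all passed the same filter and were tested. Kirrel1 and Pecam1 matched no gene name.

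The study, by its title, concerns potassium depletion and supplementation in salt-sensitive hypertension. Male and female rats, of a strain the labels do not name and with the genotype given as WT, had a blood pressure telemeter implanted at 8 weeks of age. All of them then ate a high-salt diet with 4% NaCl for 5 weeks, so no group is a low-salt control. The diets differed in potassium and were deficient in it (DK), normal (NK, 0.36% potassium) or high (HK, 1.41% potassium). There were 6 libraries each of female NK, female DK, male NK, male DK and male HK, and 5 of female HK. The labels number the samples and do not say beyond this that each came from a separate animal, so p-values here set differences against the spread among these samples alone.

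Podocytes wrap the glomerular capillaries with foot processes, and the slit diaphragm between these processes completes the filter. Mesangial cells hold the capillary tufts together, and smooth muscle cells and pericytes surround the larger vessels and capillaries; both kinds are called mural cells here. Glomerular endothelium is fenestrated and depends on vascular endothelial growth factor A that podocytes secrete. The angiopoietins act on the endothelial receptor Tek, with Tie1 as its partner, and mural cells respond to platelet-derived growth factor and to Notch ligands from the endothelium.

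Promoters of 5 members are printed because these genes carry the contrasts described here. Npnt, Acta2, Des and Tie1 were lower in potassium-deficient females, and Kdr is the receptor gene beside Tie1 that did not pass the test. Each sequence is the 250 bases before the start of the gene in RefSeq, on GRCr8, read 5′ to 3′ on the strand of the gene. Capitals mark the motif GGGCGG, the GC box, in Npnt, the motif CAGCTG, an E box, in Acta2 and Des, and the motif GTGGGAA, the core bound by the Notch effector RBPJ, in Tie1 and Kdr, each on either strand. The intervals are chr2:224133436-224133685 (minus strand) for Npnt, chr1:241172504-241172753 (minus) for Acta2, chr9:84299376-84299625 (plus) for Des, chr5:137304982-137305231 (minus) for Tie1 and chr14:32571813-32572062 (plus) for Kdr.
Npnt: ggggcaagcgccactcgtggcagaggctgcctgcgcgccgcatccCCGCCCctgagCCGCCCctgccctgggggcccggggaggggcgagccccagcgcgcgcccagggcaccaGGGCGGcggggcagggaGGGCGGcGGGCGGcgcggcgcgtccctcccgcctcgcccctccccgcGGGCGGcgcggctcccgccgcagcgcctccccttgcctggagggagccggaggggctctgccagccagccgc
Acta2: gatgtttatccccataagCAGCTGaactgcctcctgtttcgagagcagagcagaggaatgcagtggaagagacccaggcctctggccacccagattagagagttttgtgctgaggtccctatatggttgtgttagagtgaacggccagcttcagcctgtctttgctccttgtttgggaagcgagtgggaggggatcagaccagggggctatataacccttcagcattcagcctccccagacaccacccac
Des: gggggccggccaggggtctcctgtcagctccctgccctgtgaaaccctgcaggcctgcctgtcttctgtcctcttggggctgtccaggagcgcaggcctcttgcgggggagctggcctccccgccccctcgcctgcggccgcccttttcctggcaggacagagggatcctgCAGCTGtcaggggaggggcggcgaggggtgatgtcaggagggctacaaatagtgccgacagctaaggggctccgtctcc
Tie1: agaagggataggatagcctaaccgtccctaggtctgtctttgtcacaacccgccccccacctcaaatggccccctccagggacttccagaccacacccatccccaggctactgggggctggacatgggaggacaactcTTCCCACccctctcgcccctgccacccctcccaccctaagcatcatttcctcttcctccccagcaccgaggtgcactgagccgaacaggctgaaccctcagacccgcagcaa
Kdr: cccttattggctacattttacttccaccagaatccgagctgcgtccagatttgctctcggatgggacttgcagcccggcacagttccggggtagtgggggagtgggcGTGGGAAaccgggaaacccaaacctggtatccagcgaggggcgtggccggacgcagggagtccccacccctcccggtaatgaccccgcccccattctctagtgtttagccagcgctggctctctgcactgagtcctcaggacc

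Of the 36 tested members, 25 had a single promoter in the RefSeq table, 10 podocyte, 8 mural and 7 endothelial, and each was searched on both strands beside 33469 promoters of the same length. The E box CAGCTG was in 4 of 8 mural promoters, those of Acta2, Cnn1, Des and Gata3, and in 1 of 10 podocyte promoters, that of Cd2ap. It was in none of the 7 endothelial promoters and in 12% of all promoters. GTGGGAA was in 3 of 7 endothelial promoters, those of Tie1, Ehd3 and Kdr, in no podocyte or mural promoter, and in 5.27% of all. GGGCGG was in 4 of 10, 4 of 8 and 5 of 7, against 30.5% of all, and Npnt held 6 copies. The ETS core CAGGAA was in 3 promoters of each set, against 24.7% of all. An exact match to the serum response element CArG was in no member promoter and in 1.5% of all. Near matches were not counted for any motif, so this does not show that these promoters lack such an element. In the 5 printed promoters no match overlapped another. These matches describe the letters of these windows only.

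Reads recovered from the FPKM values numbered 13.99 M to 28.66 M per library (M for 1e6 reads), with a median of 14.98 M. Levels are per gene length and can be compared between genes. Averaged over the 35 libraries, the members ran from 0.887 FPKM for Magi2 to 148.1 FPKM for Actn4. Angpt2 had the widest range among libraries, from 1.81 to 67.2 FPKM, and Actn4 the narrowest, from 125.7 to 165.6 FPKM. The fewest reads of any member in any library were 13, for Cnn1. The labelled cortex was checked against markers of other segments. The 8 proximal tubule markers summed to between 1976 and 4194 FPKM in every library, and 4 markers of inner medulla and urothelium to between 3.67 and 23.4 FPKM. Each library carries a number, of unstated meaning, that starts with 2 (the 200s) or 3 (the 300s). There are 9 libraries of the 200s, 4 of them female NK and 5 male DK, and the remaining 26 have one of the 300s. Female DK replicate 3, female NK replicate 2 and female DK replicate 1 had the lowest library weights in limma (0.194, 0.343 and 0.402).

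In females, potassium deficiency went with lower levels of podocyte, mural and some endothelial members compared with the normal-potassium diet. By limma on log2(FPKM + 0.5), with p-values adjusted by Benjamini-Hochberg over all 15939 genes, 18 of the 36 members were lower in female DK than in female NK, 1 was higher and 17 did not pass an adjusted p of 0.05. Of all genes tested, 36.1% were called, 18.3% lower and 17.8% higher. Of 13 podocyte members 8 fell and 1 rose, 6 of 11 mural members fell, and 4 of 12 endothelial members fell. The median log2 change was -0.44 for podocyte, -0.52 for mural and -0.16 for endothelial members, beside -0.02 for all genes tested. In bulk tissue, fewer cells of a type and less RNA per cell cannot be told apart.

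**Figure D1:**
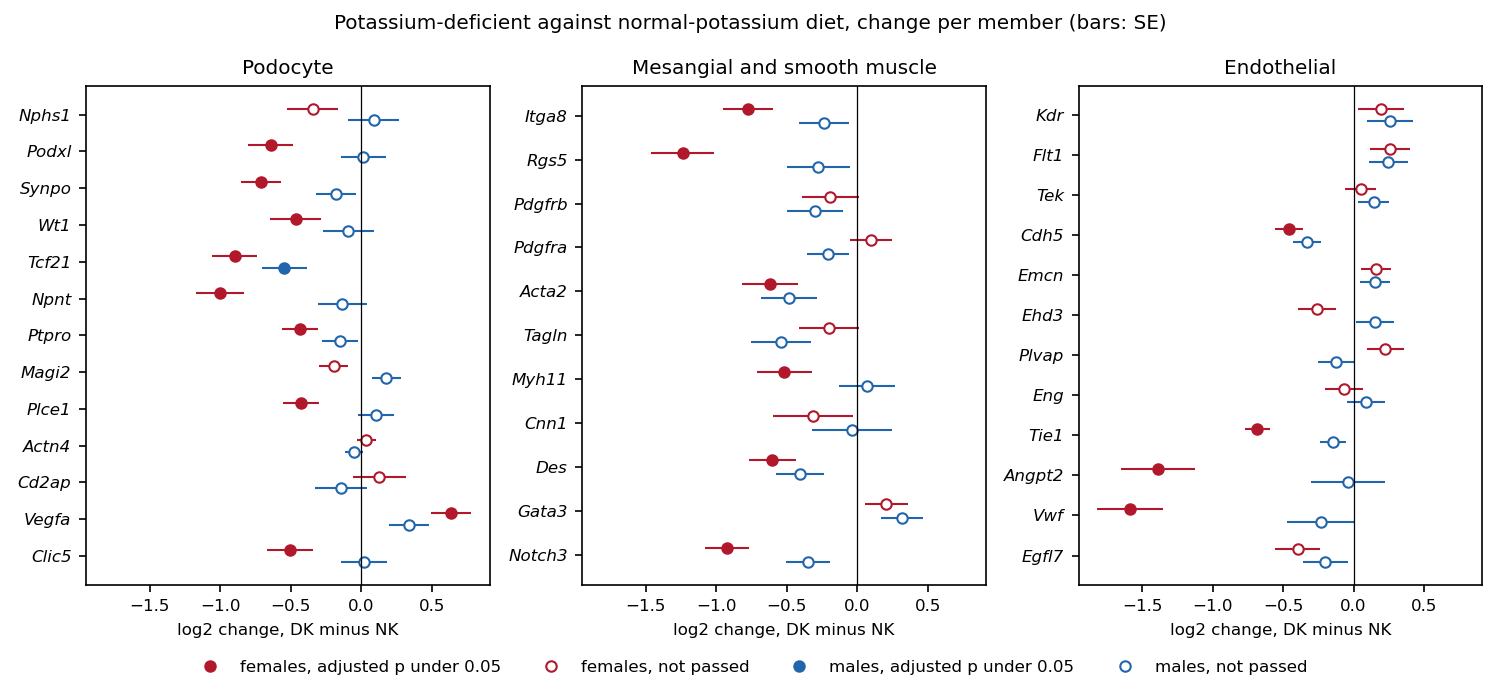
Log2 change (DK minus NK) of each tested member in females (red) and males (blue), by set. Bars are standard errors and filled points passed an adjusted p of 0.05. In females 19 points are filled, 18 of them below 0, and in males only Tcf21 is filled.

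Among podocyte genes the matrix protein and the transcription factor came first by size. Npnt encodes nephronectin, a basement membrane ligand of the integrin whose alpha chain Itga8 encodes. In the deposited table it lies on chromosome 2 (238002990 to 238068694, minus strand, build not given in the sources used here). Npnt was at 41.1 to 50.5 FPKM in female NK (median 46.7) and at 10.1 to 29.4 FPKM in female DK (median 26.4). The groups did not overlap, and the log2 change was -1.0 ± 0.17 (SE; adjusted p = 3.05e-05). The lowest value belonged to female DK replicate 3, and the other 5 female DK libraries were at 23.7 FPKM or more. Tcf21 encodes a basic helix-loop-helix factor of podocytes and of stromal progenitors. It was at 26.2 to 47.7 FPKM in female NK (median 35.2) and at 12.6 to 21.5 FPKM in female DK (median 20.3), again without overlap, and fell by 0.90 ± 0.16 on the log2 scale (adjusted p = 4.24e-05). Npnt and Tcf21 were 2 of 4 members whose female DK and NK values did not overlap, with Tie1 and Vwf. Of all genes tested, 11% did not overlap in this contrast, in either direction.

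The cytoskeletal and surface proteins of the foot process were lower by smaller amounts, and their groups overlapped. Synpo, an actin-associated protein of foot processes, was at 12.4 to 19.6 FPKM in female NK and 5.65 to 13.4 FPKM in female DK (log2 change -0.71 ± 0.14, adjusted p = 0.000219). Podxl, the sialomucin of the podocyte surface, was at 22.1 to 36.0 FPKM in female NK and 13.3 to 26.1 FPKM in female DK (-0.64 ± 0.16, adjusted p = 0.00184). Clic5, which is linked to the podocalyxin complex, fell by 0.50 (adjusted p = 0.0152), the receptor phosphatase gene Ptpro by 0.44 (0.00754) and the phospholipase gene Plce1 by 0.42 (0.0094). Wt1, the podocyte transcription factor, fell by 0.46 with an adjusted p of 0.0448, and 8 of 14 alternative settings ended the call.

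Other podocyte members did not pass. Nphs1, which encodes nephrin, was at 10.7 to 14.0 FPKM in female NK and 6.97 to 12.3 FPKM in female DK. Its log2 change of -0.34 (95% interval -0.71 to 0.02) did not pass (adjusted p = 0.138). The scaffold gene Magi2 was at -0.20 (adjusted p = 0.143). Cd2ap, the adaptor that binds nephrin, was at 0.13 and the actin crosslinker gene Actn4, which is expressed well beyond podocytes, at 0.04, and neither passed. When the values were rescaled to the sum of reads in each library, Nphs1 (-0.52, adjusted p = 0.015) and Magi2 (-0.30, adjusted p = 0.024) passed.

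Vegfa, the podocyte's growth factor for endothelium, which tubule cells also make, rose in potassium-deficient females. It was at 54.6 to 74.2 FPKM in female NK (median 68.8) and at 62.2 to 137.3 FPKM in female DK (median 114.4), a log2 change of 0.64 ± 0.14 (adjusted p = 0.000619). Of the female DK libraries 4 lay at 114.1 FPKM or more, 1 at 81.3 FPKM, and 1 within the NK range. It was the only member called higher in this contrast, and it stayed higher with library sums of reads (0.45, adjusted p = 0.011).

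**Figure D2:**
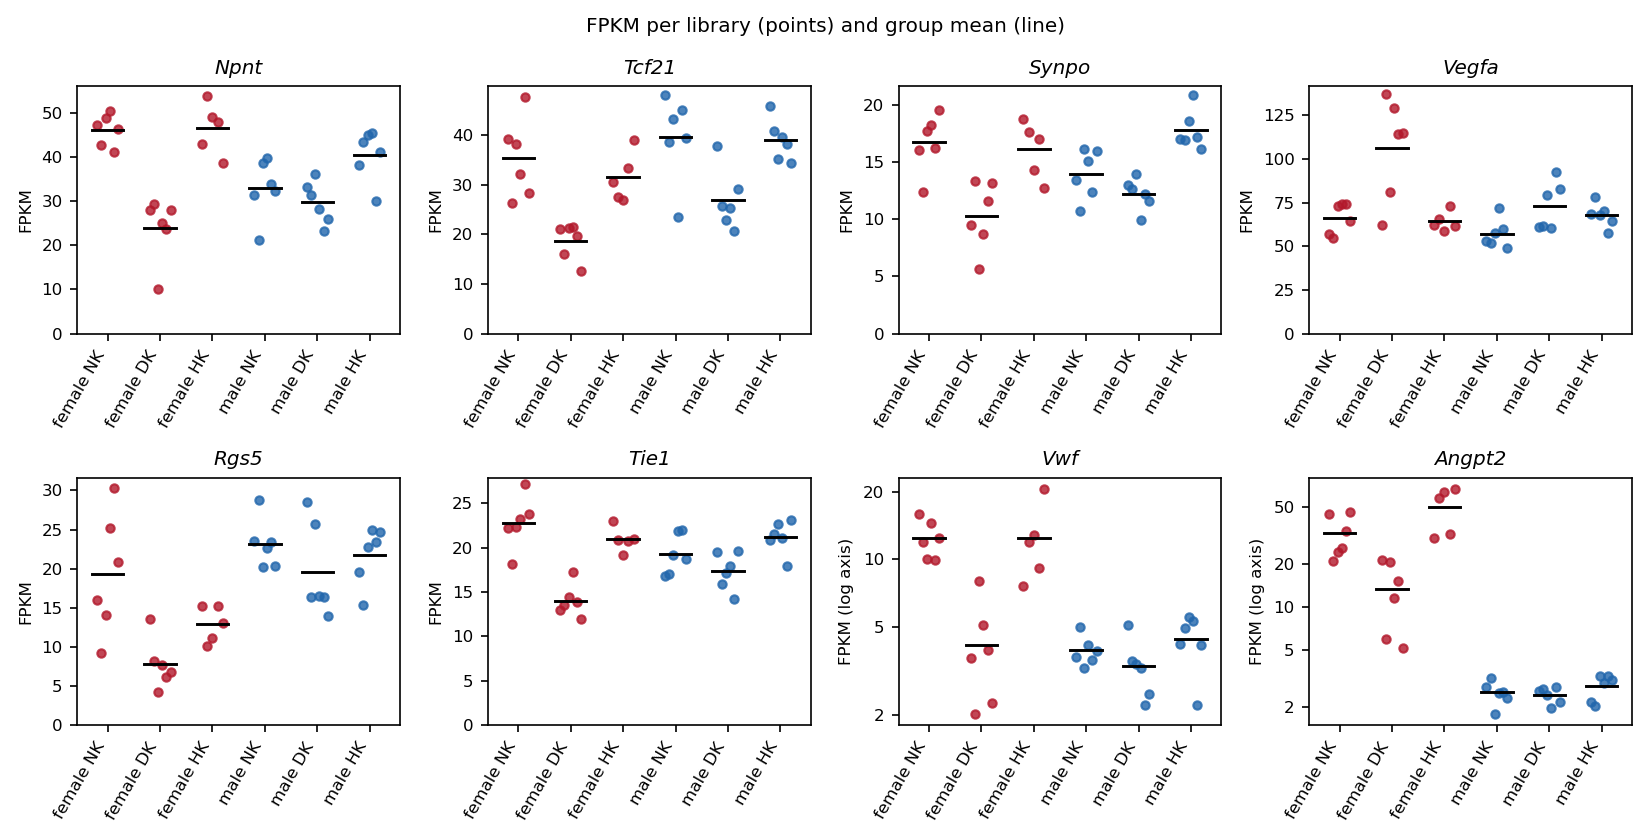
FPKM of 8 members in every library (points) with the mean of each of the 6 groups (line); Vwf and Angpt2 are on log axes. Female DK libraries lie below all female NK libraries for Npnt, Tcf21, Tie1 and Vwf, and all male libraries lie below 4 FPKM for Angpt2.

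Among mural members, Rgs5, Notch3 and Itga8 had the largest log2 changes. Rgs5, a regulator of G-protein signalling found in pericytes, was at 9.21 to 30.4 FPKM in female NK (median 18.5) and 4.28 to 13.6 FPKM in female DK (median 7.18). The log2 change was -1.24 ± 0.22 (adjusted p = 5.12e-05), and the ranges overlapped. Notch3, the Notch receptor of mural cells, was at 2.01 to 5.29 FPKM and 1.04 to 2.27 FPKM (-0.92 ± 0.16, adjusted p = 1.98e-05). Itga8, the mesangial integrin chain that binds nephronectin, was at 1.32 to 4.91 FPKM and 1.53 to 2.73 FPKM (-0.77 ± 0.18, adjusted p = 0.000824). In all 3 genes female NK replicate 2 alone lay below the highest female DK library. It was the lowest female NK library in the mean over the mural members (-0.64, against a female NK mean of 0.00, in log2 relative to the mean of 35 libraries).

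Of the contractile genes, some passed and some did not. Smooth muscle actin, Acta2, fell by 0.62 (adjusted p = 0.0145), desmin, Des, by 0.60 (0.00513) and the smooth muscle myosin Myh11 by 0.52 (0.039). Leaving out female NK replicate 4 ended the call of Acta2. Myh11 lost its call without that library, without female NK replicate 5 or without female DK replicate 1 or replicate 5, and also with no filter, quantile normalization and the contrast's groups alone. Female NK replicate 4 also stood apart in 3 adipocyte markers, which summed to 73.4 FPKM in it and to at most 11.7 FPKM in any other library, and the part of this in the result was not tested. Transgelin, Tagln, at -0.20 and calponin, Cnn1, at -0.32 did not pass. The receptors for platelet-derived growth factor, Pdgfrb at -0.19 and Pdgfra at 0.10, did not pass either, nor did the transcription factor gene Gata3 at 0.20, which collecting duct cells also express.

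Endothelial members split by gene. Vwf, the clotting protein stored by endothelium of larger vessels, lies on chromosome 4 in the deposited table (158088505 to 158219523, plus strand). It was at 9.97 to 15.9 FPKM in female NK (median 12.2) and 2.03 to 7.98 FPKM in female DK (median 3.77). The groups did not overlap, and the log2 change of -1.58 ± 0.24 was the largest fall among the members (adjusted p = 3.43e-06). Angpt2, the angiopoietin that modulates Tek, was at 21.1 to 46.1 FPKM and 5.17 to 21.3 FPKM, with a log2 change of -1.39 ± 0.26 (adjusted p = 9.57e-05) and ranges that overlapped by 1 library of each group. Tie1 was at 18.2 to 27.1 FPKM and 12.0 to 17.3 FPKM without overlap (-0.68 ± 0.09, adjusted p = 5.93e-07). Cdh5, the cadherin of endothelial junctions, fell by 0.46 (adjusted p = 0.000553).

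The other 8 endothelial members did not pass in this contrast. The growth factor receptors Kdr (0.19, 95% interval -0.14 to 0.53) and Flt1 (0.26, -0.03 to 0.54) and the angiopoietin receptor Tek (0.05, -0.17 to 0.27) were above 0. Emcn, an endothelial sialomucin, was at 0.16 and Plvap, the protein of fenestral diaphragms, at 0.23. Eng, a co-receptor of transforming growth factor beta, was at -0.07 and Ehd3, a trafficking protein of glomerular endothelium, at -0.26. Egfl7, a secreted endothelial protein, was at -0.40 with an adjusted p of 0.0509, and passed in 6 of 14 alternatives. Within each library, Tie1 was 2.03 to 2.80 times the level of Tek in female NK and 1.09 to 1.72 times in female DK, and these ranges did not overlap. Vegfa was 5.20 to 7.93 times the level of Kdr in female NK and at least 7.41 times in every female DK library.

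The scaling of the values and the number series bear on these counts. With library sums of reads, the median of all genes in female DK against NK moved from -0.02 to -0.17. Calls over all genes then went from 2843 higher and 2917 lower to 1489 higher and 5074 lower, and 23 members were called, 1 higher and the rest lower. Beside that shift of all genes, Npnt was at -1.18, Rgs5 at -1.41, Vwf at -1.74 and Tie1 at -0.86. The share of all genes called went from 36.1% to 23.7% with the number series as a covariate and to 22.4% within the 300s alone. With the covariate, 17 of the 19 member calls remained, and Clic5 and Wt1 did not pass. Within the 300s alone, with 2 female NK libraries, 15 of the 19 calls remained, and Podxl (adjusted p = 0.051), Ptpro (0.056), Clic5 (0.17) and Wt1 (0.22) did not pass. Npnt (-1.07, adjusted p = 0.0065), Notch3 (-1.22, 2e-05) and Vwf (-1.71, 0.0014) were among those that remained. Without the 3 libraries of lowest weight, chosen after seeing the data, 16 of the 19 remained and Clic5, Ptpro and Wt1 did not, while Egfl7 was added.

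Markers of other cell types also moved in female DK. Of 5 fibroblast markers 4 were called lower and 1 (Dcn, named after its values were seen) higher. Their summed level was 174.1 to 360.9 FPKM in female NK and 278.4 to 469.1 FPKM in female DK. Dcn alone averaged 185.4 FPKM in female NK and 316.5 FPKM in female DK, so this sum mostly follows Dcn and not the 4 lower markers. Of 8 proximal tubule markers 5 were called higher and 2 lower, with sums of 2843 to 4194 FPKM and 2635 to 4079 FPKM. Of 5 thick ascending limb markers 3 were lower and 1 higher (1359 to 1880 FPKM and 866.1 to 1665 FPKM), and 2 of 4 tested leukocyte markers were lower (26.5 to 41.5 FPKM and 22.9 to 36.0 FPKM). The part of these cell types in the members' changes was not tested.

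Genes of the same cells and pathways that were listed separately are counted here beside the 36.1% of all genes called in this contrast, 18.3% lower and 17.8% higher. Of 19 other podocyte genes, 7 were lower in female DK and none higher, among them the transcription factors Lmx1b (-0.96) and Foxc2 (-0.52), the GTPase regulator Arhgap24 (-0.55) and the sulfatase Sulf1 (-0.57). Of 10 genes of the glomerular basement membrane, 3 were lower, the collagen chain gene Col4a4 (from 68.3 to 23.0 FPKM, log2 change -1.57, adjusted p = 1.32e-08) and the nidogens Nid1 (-0.58) and Nid2 (-0.35). Of 16 other mural genes, 6 were lower, among them the myosin light chain Myl9 (-1.06), the channel subunit Abcc9 (-0.84) and Thy1 (-0.71).

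Ligands and receptors of the vascular pathways were lower in part, beside the same 36.1% of all genes called, 18.3% lower and 17.8% higher. Of 15 genes of growth factor and angiopoietin signalling, 8 were lower and none higher. They include Pdgfb, the endothelial ligand of Pdgfrb (-0.96), Angpt1, the mural ligand of Tek (-0.87), the co-receptor Nrp1 (-0.59) and Angptl4 (-1.24). Of 11 Notch genes, the receptor Notch2 was lower (-0.50) and the target Hey1 higher (0.60), so 18.2% were called, below the share of all genes. Of 27 other endothelial genes, 12 were lower and none higher, with thrombomodulin, Thbd (-1.09), the apelin receptor Aplnr (-0.99), the connexin Gja5 (-0.97) and the adhesion molecule Vcam1 (-0.88) lowest.

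In males the same comparison called 1 member. Tcf21 was at 23.4 to 48.1 FPKM in male NK (median 41.4) and 20.6 to 37.7 FPKM in male DK (median 25.5). It was 0.54 ± 0.16 lower on the log2 scale (adjusted p = 0.0461), with overlapping groups, and 16 of 35 fits that left out 1 library lost the call. Of all genes tested, 4.3% were called in this contrast, 1.74% lower. Cdh5 was at 7.16 to 8.57 FPKM in male NK and 5.02 to 6.72 FPKM in male DK, without overlap, and its log2 change of -0.33 had an adjusted p of 0.0536. Of all genes tested, 3.52% did not overlap in males. The median change was -0.05 for podocyte, -0.28 for mural and 0.02 for endothelial members. Npnt was at -0.13 (95% interval -0.49 to 0.22), Rgs5 at -0.28, Tie1 at -0.15, Vwf at -0.23, Angpt2 at -0.04 and Vegfa at 0.34 (adjusted p = 0.167), none of which passed. Of the basement membrane genes, 5 of 10 were lower in male DK, beside the 1.74% of all genes called lower, among them Col4a2 (-0.66), Col4a4 (-0.63), Col4a1 (-0.58) and Lamc1 (-0.39). Pdgfb (-0.67), Thbd (-0.54) and Fli1 (-0.44) were the only genes of the other 5 pathway lists called in males. Of the male DK libraries 5 are in the 200s, and all 6 male NK libraries are in the 300s. Diet and number series therefore cannot be told apart for most of these libraries. With the series as a covariate, Tcf21 did not pass, and 91 of all genes were called, 67 higher and 24 lower. The pathway lists were not tested with that covariate. With library sums of reads, the calls over all genes went from 408 higher and 277 lower to 244 higher and 1036 lower, and 2 members were called.

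The difference between the sexes in this response was tested as an interaction, male minus female. There were 4 members that passed, with a less negative change in males, beside 8.92% of all genes called and 4.35% called higher. They were Vwf (1.35 ± 0.33, adjusted p = 0.0084), Angpt2 (1.34 ± 0.37, 0.0179), Npnt (0.87 ± 0.24, 0.0212) and Tie1 (0.54 ± 0.13, 0.0068). None of the 4 passed with the number series as a covariate, where Vwf was at 1.3 (adjusted p = 0.43), Angpt2 at 1.46 (0.43), Npnt at 0.84 (0.51) and Tie1 at 0.73 (0.13), or within the 300s. The 300s hold only 1 male DK and 2 female NK libraries. Angpt2 also did not pass with voom on the recovered reads, nor did Npnt with the groups of the contrast alone. Leaving out female NK replicate 2 raised the number of members called from 4 to 10, and the share of all genes called in that fit is not given. Without the 3 libraries of lowest weight, which include it, 9 members and 11.3% of all genes were called.

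**Figure D3:**
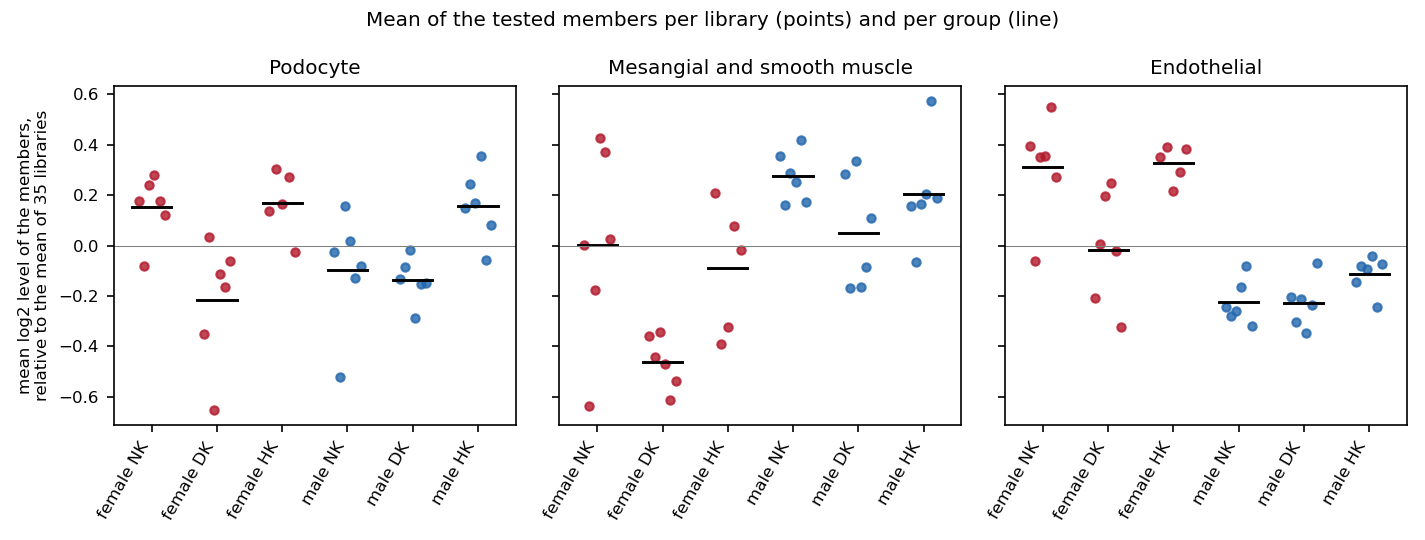
Mean log2 level of the tested members of each set in every library (points), relative to the mean of 35 libraries, with the mean of each group (line). The female DK mural means lie between -0.61 and -0.34, and the female NK mural means spread from -0.64 to 0.43, with replicate 2 lowest.

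DK was also set against the high-potassium diet, a comparison that shares the DK libraries with the one against NK. In female DK against HK, 16 members were lower and 1, Vegfa, was higher, beside 33.4% of all genes called, 16.7% lower and 16.8% higher. All 11 female libraries of this comparison carry numbers in the 300s. All 16 were also lower against NK, and Acta2 and Myh11 were lower only in the count against NK, where the difference between the comparisons was not tested. Angpt2 was at 30.4, 32.6, 58.1, 63.5 and 67.2 FPKM in the 5 female HK libraries, all above the highest female DK library (21.3 FPKM), with a log2 change of -1.99 (adjusted p = 1.4e-06). Npnt was at -1.01 (adjusted p = 6.9e-05), Vwf at -1.52 (1.7e-05), Tie1 at -0.57 (2.6e-05) and Notch3 at -0.74 (0.00064). Between these groups 7 members did not overlap, Tcf21, Npnt, Itga8, Notch3, Cdh5, Tie1 and Angpt2, beside 14.3% of all genes. With library sums of reads, calls over all genes went from 2671 higher and 2657 lower to 1226 higher and 5442 lower, and 24 members were called.

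In male DK against HK, 2 members were lower, Synpo (-0.53, adjusted p = 0.034) and Tcf21 (-0.55, 0.046), beside 3.76% of all genes called and 1.5% called lower. Synpo was at 9.94 to 14.0 FPKM in male DK and at 16.1 to 20.9 FPKM in male HK, without overlap, and Cdh5, which did not pass, did not overlap either, beside 2.64% of all genes. Under library sums of reads, 203 genes were higher and 466 lower, against 360 and 239, and 5 members were called. Neither passed with the number series as a covariate, and the fits that left out 1 library called 0 to 3 members. The median over the podocyte members was -0.40, with 11 of 13 below 0. Weights per library called 10 members in this contrast and raised the share of all genes called to 11.6%. The interaction with sex passed for Angpt2 (1.82, adjusted p = 0.0028) and Vwf (1.17, 0.040), beside 4.76% of all genes called and 2.12% called higher. Vwf lost that call in 6 of 14 alternatives and in 13 of 35 fits that left out 1 library, and Angpt2 lost it only within the 300s. With library sums of reads, that interaction was higher for 735 and lower for 279 genes, against 338 and 421.

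High potassium against normal potassium gave no call. In females and in males, 0 of 15939 genes passed by limma, so 0% were called, and voom on the recovered reads also called 0 in each. With library weights 247 genes (1.55%) were called in males, 83 higher and 164 lower, with Podxl the only member, and 1 gene in females. At an unadjusted p under 0.05 there were 432 genes in females and 1189 in males. There were 2 members among the former, Rgs5 (-0.48) and Angpt2 (0.60). There were 6 among the latter, all of them podocyte genes and all above 0: Nphs1 (0.50), Podxl (0.48), Clic5 (0.42), Synpo (0.35), Plce1 (0.32) and Magi2 (0.29), with adjusted p-values of 0.559 to 0.612. Synpo was at 10.78 to 16.13 FPKM in male NK and 16.14 to 20.93 FPKM in male HK. These ranges nearly touched but did not overlap, beside 0.402% of all genes without overlap. The interaction with sex also called 0 genes, with 901 genes and 3 members at an unadjusted p under 0.05.

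Males and females differed most in Angpt2. It lies on chromosome 16 in the deposited table (75966352 to 76016195, plus strand). All 18 male libraries were between 1.81 and 3.34 FPKM on the 3 diets, and all 17 female libraries were between 5.17 and 67.2 FPKM, so the sexes did not overlap on any diet. The log2 difference, males minus females, was -3.40 ± 0.26 on NK (adjusted p = 1.22e-11), -2.06 ± 0.26 on DK (3.54e-07) and -3.88 ± 0.27 on HK (1.51e-12). Vwf was 3.27 to 4.95 FPKM in male NK, below all 6 female NK libraries (log2 difference -1.55, adjusted p = 1.31e-05), and was also lower in males on HK (-1.37, 0.000219). On DK the Vwf difference was -0.20 (95% interval -0.68 to 0.28) and did not pass. Within female libraries Angpt2 was 2.31 to 5.42 times the level of Tek on NK and 0.480 to 2.47 times on DK, and in male libraries it was at most 0.379 times.

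On NK, 10 members differed between the sexes, 7 lower and 3 higher in males, beside 19.3% of all genes, 9.26% higher and 10.1% lower. The podocyte genes Plce1 (-0.62), Nphs1 (-0.56), Podxl (-0.50) and Npnt (-0.50) and the endothelial gene Ehd3 (-0.40) were lower in males, with Angpt2 and Vwf. Tagln (0.60), Cd2ap (0.52) and Des (0.51) were higher. Npnt was at 21.2 to 39.9 FPKM in male NK and 41.1 to 50.5 FPKM in female NK, and Cd2ap at 41.5 to 51.6 FPKM and 28.2 to 39.6 FPKM. With Angpt2 and Vwf these were the 4 members without overlap, beside 10.1% of all genes. With the number series as a covariate, or within the 300s, only Angpt2, Vwf and Plce1 passed. When scaled to library sums of reads, 2830 genes were higher and 898 lower, against 1476 and 1606, and Ehd3, Nphs1, Npnt and Podxl did not pass. Of the markers of other cells on NK, 3 of 4 tested leukocyte and 3 of 5 fibroblast markers were higher in males. In proximal tubule 2 of 8 markers were lower, in intercalated cells 2 of 4, and in thick ascending limb 2 of 5, with 1 higher. Their summed levels in male and female NK were 45.6 to 63.7 FPKM and 26.5 to 41.5 FPKM for leukocytes. For fibroblasts they were 199.0 to 398.3 FPKM and 174.1 to 360.9 FPKM, of which Dcn alone averaged 168.3 FPKM and 185.4 FPKM. The part of these cell types was not tested. Leaving out 1 library gave 3 to 13 calls, with 3 without female NK replicate 3 and 6 without female NK replicate 1 or replicate 4. There were 5 without male NK replicate 1 and 4 without male NK replicate 2. Nphs1, Podxl, Npnt, Ehd3, Cd2ap and Tagln lost their calls without male NK replicate 2. They also lost them without female NK replicate 3, as did Des.

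On DK, 12 members differed between the sexes, 8 higher and 4 lower in males, beside 31.8% of all genes, 15.2% higher and 16.6% lower. Of the 11 mural members 5 were higher in males and none lower: Rgs5 (1.31 ± 0.22, adjusted p = 3.38e-05), Notch3 (0.71, 0.000675), Des (0.71, 0.00156), Itga8 (0.56, 0.0156) and Acta2 (0.55, 0.0333). All 11 were above 0, with a median of 0.55. Rgs5 was at 13.9 to 28.5 FPKM in male DK against 4.28 to 13.6 FPKM in female DK, without overlap, as were Notch3 and Angpt2, beside 9.88% of all genes. Tcf21 (0.51), Cdh5 (0.30) and Tie1 (0.30) were also higher in males, and Plvap (-0.56), Vegfa (-0.51), Emcn (-0.30) and Angpt2 were lower. All 4 leukocyte markers tested were also higher in males on DK, and 3 of 5 fibroblast markers were higher and 1 lower. Their summed levels were 39.8 to 53.0 FPKM for leukocytes in male DK and 22.9 to 36.0 FPKM in female DK. For fibroblasts they were 277.9 to 340.8 FPKM in male DK and 278.4 to 469.1 FPKM in female DK. Of the fibroblast sums, Dcn alone averaged 207.9 FPKM in male DK and 316.5 FPKM in female DK. The part of these cell types was not tested. Since 5 of the 6 male DK libraries are in the 200s and all 6 female DK libraries in the 300s, sex and number series cannot be told apart for most of these libraries. With the series as a covariate 8 of the 12 remained (Rgs5 1.41, adjusted p = 0.0028; Notch3 0.94, 0.0028), and within the 300s, which rest on 1 male DK library, only Angpt2 did. Under the same rescaling, 4700 genes were higher and 1276 lower, against 2421 and 2646, and Vegfa and Emcn did not pass.

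On HK, 4 members differed between the sexes, beside 9.05% of all genes, 3.7% higher and 5.35% lower. Angpt2, Vwf and Plce1 (-0.50, adjusted p = 0.0128) were lower in males and Rgs5 was higher (0.73, 0.0445). All libraries of both groups are in the 300s. Rgs5 was at 15.4 to 24.9 FPKM in male HK and 10.1 to 15.3 FPKM in female HK, without overlap, beside 7.56% of all genes. It lost its call with library sums of reads, with no filter and in 10 of 35 fits that left out 1 library.

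**Figure D4:**
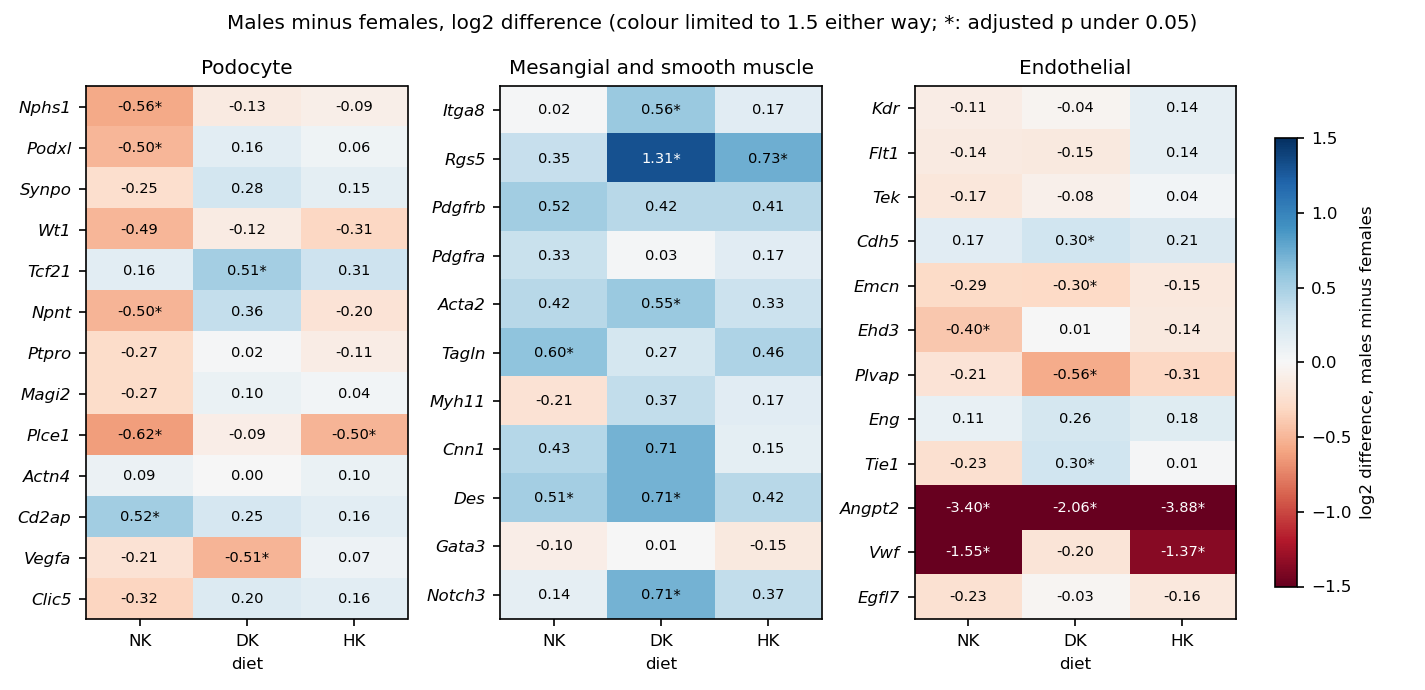
Log2 difference, males minus females, of each tested member on each diet, as number and colour; colours stop at 1.5 and asterisks mark an adjusted p under 0.05. Angpt2 is marked on all 3 diets, and the mural column on DK holds 5 marked members, all above 0.

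The members of a set also varied together among libraries of 1 group. With each group's mean removed, Pearson correlations of log2 values over the 35 libraries had a median of 0.43 over the 78 podocyte pairs, 0.38 over the 55 mural pairs and 0.35 over the 66 endothelial pairs. Between sets the medians were 0.03 for podocyte with mural, 0.11 for podocyte with endothelial and 0.18 for mural with endothelial members, and each set had a median of about 0 with all other genes (-0.01, 0.00 and 0.00). These are descriptions, since all members of a library share its tissue piece, depth and scaling. Podxl and Clic5 were the closest podocyte pair (0.94), Rgs5 and Notch3 the closest mural pair (0.87) and Flt1 and Ehd3 the closest endothelial pair (0.83).

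For some members the closest other member was in another set. Tcf21 had a median correlation of -0.24 with the other podocyte members and was closest to Pdgfrb (0.63). Gata3 was closest to Nphs1 (0.67), with medians of 0.54 with podocyte and 0.14 with mural members. Vegfa was closest to the endothelial receptor Flt1 (0.79), though its median was 0.45 with podocyte and 0.30 with endothelial members. Kdr and Flt1 were closest to endothelial members but had medians of 0.50 with podocyte members, against 0.40 and 0.42 with their own set. Cdh5 was closest to Notch3 (0.71), with medians of 0.58 with mural and 0.30 with endothelial members. Eng was closest to Pdgfrb (0.86), with medians of 0.42 and 0.45. Angpt2 and Vwf were closest to each other (0.58), with medians of 0.04 and -0.11 with the other endothelial members and -0.45 and -0.27 with podocyte members.

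**Figure D5:**
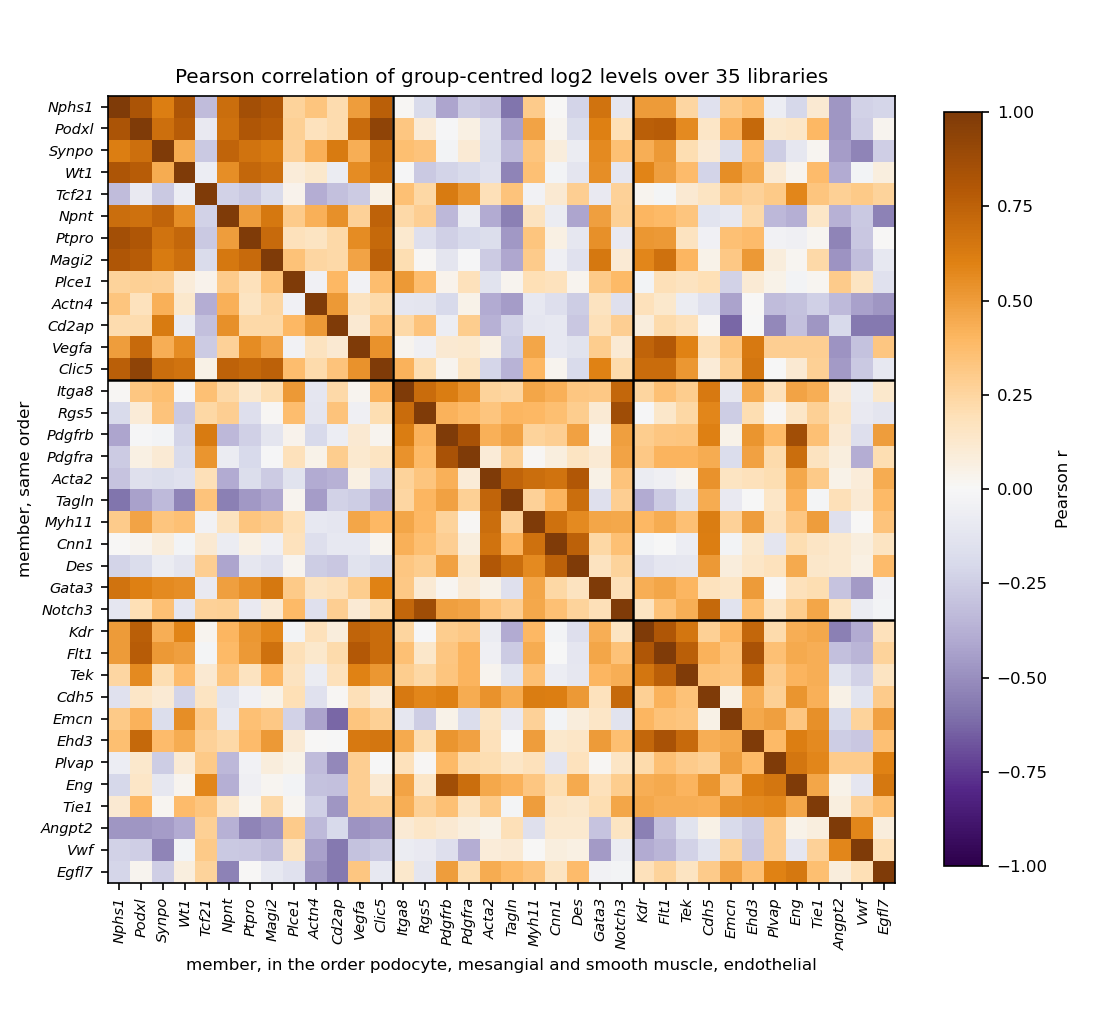
Pearson correlation of the group-centred log2 levels of the 36 members over 35 libraries, in the order podocyte, mesangial and smooth muscle, endothelial, with lines between the sets. The row of Tcf21 is pale or purple within the podocyte block, where Podxl and Clic5 reach 0.94.

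Genes outside the sets were ranked by the same correlation with the mean of each set, among 11735 genes with a mean of at least 2 FPKM. Those most like the podocyte mean were the natriuretic peptide receptor Npr3 (0.94), the transcription factor Lhx1 (0.85), the kinase Wnk1 (0.85), the semaphorin Sema3g (0.85) and Klhl3 (0.84). Those most like the mural mean were the laminin Lama4 (0.82), Sparcl1 (0.81), Ehd2 (0.81), Ppp1r9b (0.80) and the transcription factor Elk3 (0.80). For the endothelial mean they were the phosphodiesterase Pde2a (0.81), the calcium pump Atp2a3 (0.81), Cdc42ep4 (0.79), Exoc3l2 (0.79) and Fam193b (0.77). A high rank does not show that a gene is expressed in the cells of that set, since all genes of a library share its tissue piece.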

How the data were processed

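RNA of kidney cortex was sequenced in 35 libraries of 6 groups. Trizol extraction and poly-T capture of messenger RNA are given per the labels' protocols, which do not say whether the libraries were directional, so antisense reads may be included. Tools named in the submitters' processing notes are featureCounts 1.5.0-p3, StringTie 1.3.3b, HISAT2 2.0.5 and fastp. No source used here names the genome build. The authors deposited 1 table of FPKM values with gene lengths. Multiplied by length, all values gave whole reads within 0.01 read. The library sizes that give whole reads are 0.813 to 1.16 times the sums of reads, with a median of 0.864 in female DK, which shows that a further scaling of libraries is part of the values. Recovered reads in genes were 13.99 M to 28.66 M per library (M for 1e6), and overlapping genes could share reads. The smallest chi-square per gene over 595 pairs of libraries was 8.45, so no pair agreed within sampling noise.

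Values were used as log2(FPKM + 0.5) for the 15939 genes that reached 0.5 FPKM in 5 or more libraries. The fit used limma 3.58.1 (R 4.3.3) on all 35 libraries, with 1 mean per group, trended moderated variances, 29 residual degrees of freedom, Benjamini-Hochberg adjustment over all genes and calls at 0.05. In all, 12 contrasts were made: 6 of diet within a sex, 3 of their difference between sexes and 3 of sex within a diet. Log2 changes are on the log2(FPKM + 0.5) scale and understate changes of low genes. The fit was tested on simulated data. The members and all lists were chosen with earlier results of these data known. Any member could be named, up to 4 called genes per pathway list and contrast with the largest change, and the 5 genes most like each set. Some listed genes are not reported here. Promoters came from RefSeq (GRCr8). Tables were made with Python 3.11.15. Alternatives were pseudocounts of 0.1 and 1, no filter or an FPKM of at least 1, median-ratio scaling, quantile normalization, library sums, fits of the groups of a contrast alone, library weights, a replicate block, a covariate for the number series, the 300s alone, voom on the reads, and fits without each library or without the 3 of lowest weight. Replicate numbers did not pair libraries: deviations of same-numbered libraries correlated with a median of -0.00366, above 0.1 in 9 of 85 pairs.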

Additional observations from a re-analysis of the deposited data

Results flagged for a closer look

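Of 216 combinations of a member and a group, 11 held 1 library far from the others, by the gap to its nearest neighbour as a share of the group's range; chance alone flags about 1 in 20 groups. Female DK replicate 3 was lowest for Npnt (10.1 FPKM, others 23.7 to 29.4) and highest for Cnn1 (1.97, others 0.930 to 1.19) and Des (12.8, others 6.17 to 7.80). Female NK replicate 2 was lowest for Itga8 (1.32, others 3.72 to 4.91) and Egfl7 (15.6, others 23.0 to 24.7). Male HK replicate 5 was lowest for Plvap (40.1, others 51.0 to 58.2) and Vwf (2.23, others 4.15 to 5.51). The others were Podxl in female HK replicate 5 (21.8, others 29.3 to 32.8), Tcf21 in male NK replicate 4 (23.4, others 38.5 to 48.1), Myh11 in female DK replicate 1 (2.13, others 3.33 to 3.5) and Cdh5 in male DK replicate 4 (5.02, others 6.12 to 6.72), each the lowest of its group.

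In all, 6 differences between the sexes in a diet contrast passed the interaction test in limma. In DK against NK, the male minus female difference was 1.35 for Vwf, 1.34 for Angpt2, 0.87 for Npnt and 0.54 for Tie1. In DK against HK it was 1.82 for Angpt2 and 1.17 for Vwf.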

How the results depend on the processing

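Female counts of members called stayed within 1.5 times in every alternative: 15 to 23 for DK against NK (19 in the main analysis) and 15 to 24 for DK against HK (17), and 16 to 21 and 15 to 18 on leaving out 1 library. The other counts moved, and the causes were not tested. The share of all genes called moved in the same direction in the fits given next. For the sex difference in DK against NK it was 8.92% in the main analysis and 13.6% with library weights. It was 11.3% without the 3 libraries of lowest weight and 0.376% when the fit included the number series. In the same order it was 3.76%, 11.6%, 9.17% and 0.834% for male DK against HK. For male DK against NK it was 4.3%, 10.2%, 8.69% and 0.571%. Male DK against NK (1) gave 0 with no filter, the number series as a covariate or the 300s alone, 2 with the stricter filter, quantile normalization, library sums or voom, 3 with library weights or without the 3 libraries of lowest weight, and 0 to 2 on leaving out 1 library. Male DK against HK (2) gave 0 with no filter, the covariate or the 300s, 5 with library sums, 10 with weights, 7 without those 3 libraries, and 0 to 3. Male HK against NK (0) gave 1, Podxl, with weights and 0 on leaving out any library. Female HK against NK (0) and the sex difference in HK against NK (0) gave 0 with weights and on leaving out any library. The sex difference in DK against NK (4) gave 9 with weights or without the 3 libraries, 0 with the covariate or the 300s, and 4 to 10. That in DK against HK (2) gave 1, with Vwf lost, with no filter, quantile normalization, the contrast's groups alone or the covariate, 0 in the 300s, and 1 to 3. Males against females gave 6 with no filter and 3 with the covariate or the 300s on NK (10), with 3 to 13; 2 in the 300s on DK (12), with 9 to 13; and 3 to 4 on HK (4). With the replicate block, which does not pair these libraries, female DK against NK gave 18 calls, female DK against HK 16, male DK against HK 1 and the sex difference in DK against HK 1. No called member changed sign. A planned count model on the recovered reads was not run, since the deposited unit is FPKM; voom took its place. Members with few reads, such as Cnn1 at 13 reads in 1 library, are the least precise.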

Other observations

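The table lists Kirrel, which the RefSeq table gives as an older symbol of Kirrel1, a slit diaphragm partner of nephrin; it was found after the members were matched and is outside all counts. It was at 5.28 to 9.12 FPKM in female NK and 3.51 to 6.99 FPKM in female DK (log2 change -0.43, adjusted p = 0.0098 by limma). In males it was at 8.52 to 11.2 FPKM on NK and 5.54 to 7.78 FPKM on DK, without overlap, with a log2 change of -0.41 that did not pass (adjusted p = 0.0643), and against HK it was lower (-0.46, adjusted p = 0.042). The interaction with sex in DK against NK was 0.02 (95% interval -0.36 to 0.39).

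The 2 angiopoietins differed in their sex pattern. Angpt2 was 1.83 to 9.26 times the level of Angpt1 in female NK, 0.841 to 9.36 times in female DK (median 2.28) and 3.34 to 8.77 times in female HK, and in no male library was it above 0.616 times.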
